A study of Mus musculus with 2 samples.

Results

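The potassium channel genes of the mouse cerebellum were described here by the accessibility of their DNA. The set was every protein-coding gene of the GENCODE M21 annotation of the mm10 genome whose symbol starts with Kcn, which gave 94 of 21829 protein-coding genes. The data were DNase-seq maps, which locate accessible regulatory DNA as short stretches where DNase I, a nuclease, cut more often than in the surrounding chromatin. The tissue was cerebellum. The labels of both samples name a B6CASTF1/J male (a first-generation cross of C57BL/6J with CAST) at an age of 36 days, and no treatment. Both samples form 1 group. They are numbered as biological replicates 1 and 2 and come from separate biosamples, but their labels list 1 donor entry for both. Whether they are 2 animals therefore cannot be told from the labels. Part of the spread between them may be technical, and their likeness may be that of 1 donor. Each sample is called an animal below. With 1 group of 2 samples no test was possible. The main counts of Kcn genes are set beside the same count over all protein-coding genes. Counts within subfamilies are to be read against the share of all genes, and the overlap of highest peaks between animals has no such background here.

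Potassium channels let potassium ions leave the cell, set the resting potential and end the action potential. A channel is built from pore subunits, often of one subfamily, with accessory subunits that change its gating, trafficking or place in the membrane. In the cerebellum, granule cells are known for A-type and leak potassium currents. Purkinje cells are known for the fast Kcnc channels and the calcium-activated channels that shape their very rapid firing. Bergmann glia and astrocytes carry inward rectifiers that take up potassium released by neurons.

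The authors' peak lists held 140127 peaks in replicate 1 and 114404 in replicate 2. Each peak carries a height, a signal the authors deposited, on a scale not given in the sources used here, so heights were read within an animal's own list. The median height over the whole list was 0.764 and 0.899. Promoter windows reached 1000 bp to each side of all starts that the annotation gives to protein-coding transcripts. A distal peak lay in the gene body or within 10 kb of it, outside every promoter window of any protein-coding gene. The tissue label was checked against marker genes. All 7 granule cell markers had a promoter peak in both animals, as did 3 of 5 Purkinje cell markers, 3 of 4 of Bergmann glia and astrocytes, 2 of 4 of endothelium, 1 of 4 of oligodendrocytes, and none of 4 of microglia, 4 of forebrain or 3 of liver. Among the Purkinje markers, Pcp2 and Ppp1r17 lacked a promoter peak in both libraries. In a bulk tissue, fewer cells of a type and lower accessibility per cell cannot be told apart.

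Of the 94 Kcn genes, 78 had a promoter peak in replicate 1, 67 in replicate 2 and 66 in both, or 70.2%. The background over all protein-coding genes was 67.0% in replicate 1, 63.6% in replicate 2 and 62.9% in both. The share of Kcn genes was above that background with the full peak lists but not with stricter ones. With the authors' shorter list of each animal, 58.5% of Kcn genes and 59.4% of all genes had one in both. With only the peaks above the median height of their own list, these shares were 45.7% and 55.7%. Of the Kcn genes, 13 had a promoter peak in 1 animal only and 15 in neither. Regions below a false discovery rate of 0.05, the authors' measure of excess cutting along the genome, gave a similar picture. They lay in the promoter window of 68 Kcn genes in both animals (72.3%, background 63.7%). Footprints, bases within an accessible stretch that were cut less than their neighbours, lay in a promoter peak of 56 Kcn genes in both animals, or 59.6%, beside a background of 60.3%.

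The promoter peaks of Kcn genes were low. Among genes with a promoter peak, the median height of the highest one was 2.15 in replicate 1 and 1.77 in replicate 2 for Kcn genes, beside 9.10 and 6.65 for all protein-coding genes. Single Kcn promoters spanned 0.141 to 44.4 in replicate 1, and the range in replicate 2 was 0.178 to 28.9. Of the 66 Kcn genes accessible in both animals, 54 lay below the median of all accessible promoters in both and 6 above it in both. Most of these promoters were still higher than an ordinary peak, since 43 of the 66 exceeded the median of the whole peak list in both animals. A larger share did so over all protein-coding genes, at 12148 of the 13736 with a promoter peak in both. The 2 animals ranked the genes alike. Over the 66 genes the heights had a Pearson correlation of 0.975 on the log2 scale and a Spearman correlation of 0.969, a description across genes that share each library. The highest promoter peak was the same stretch of DNA in 60 of the 66.

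**Figure D1:**
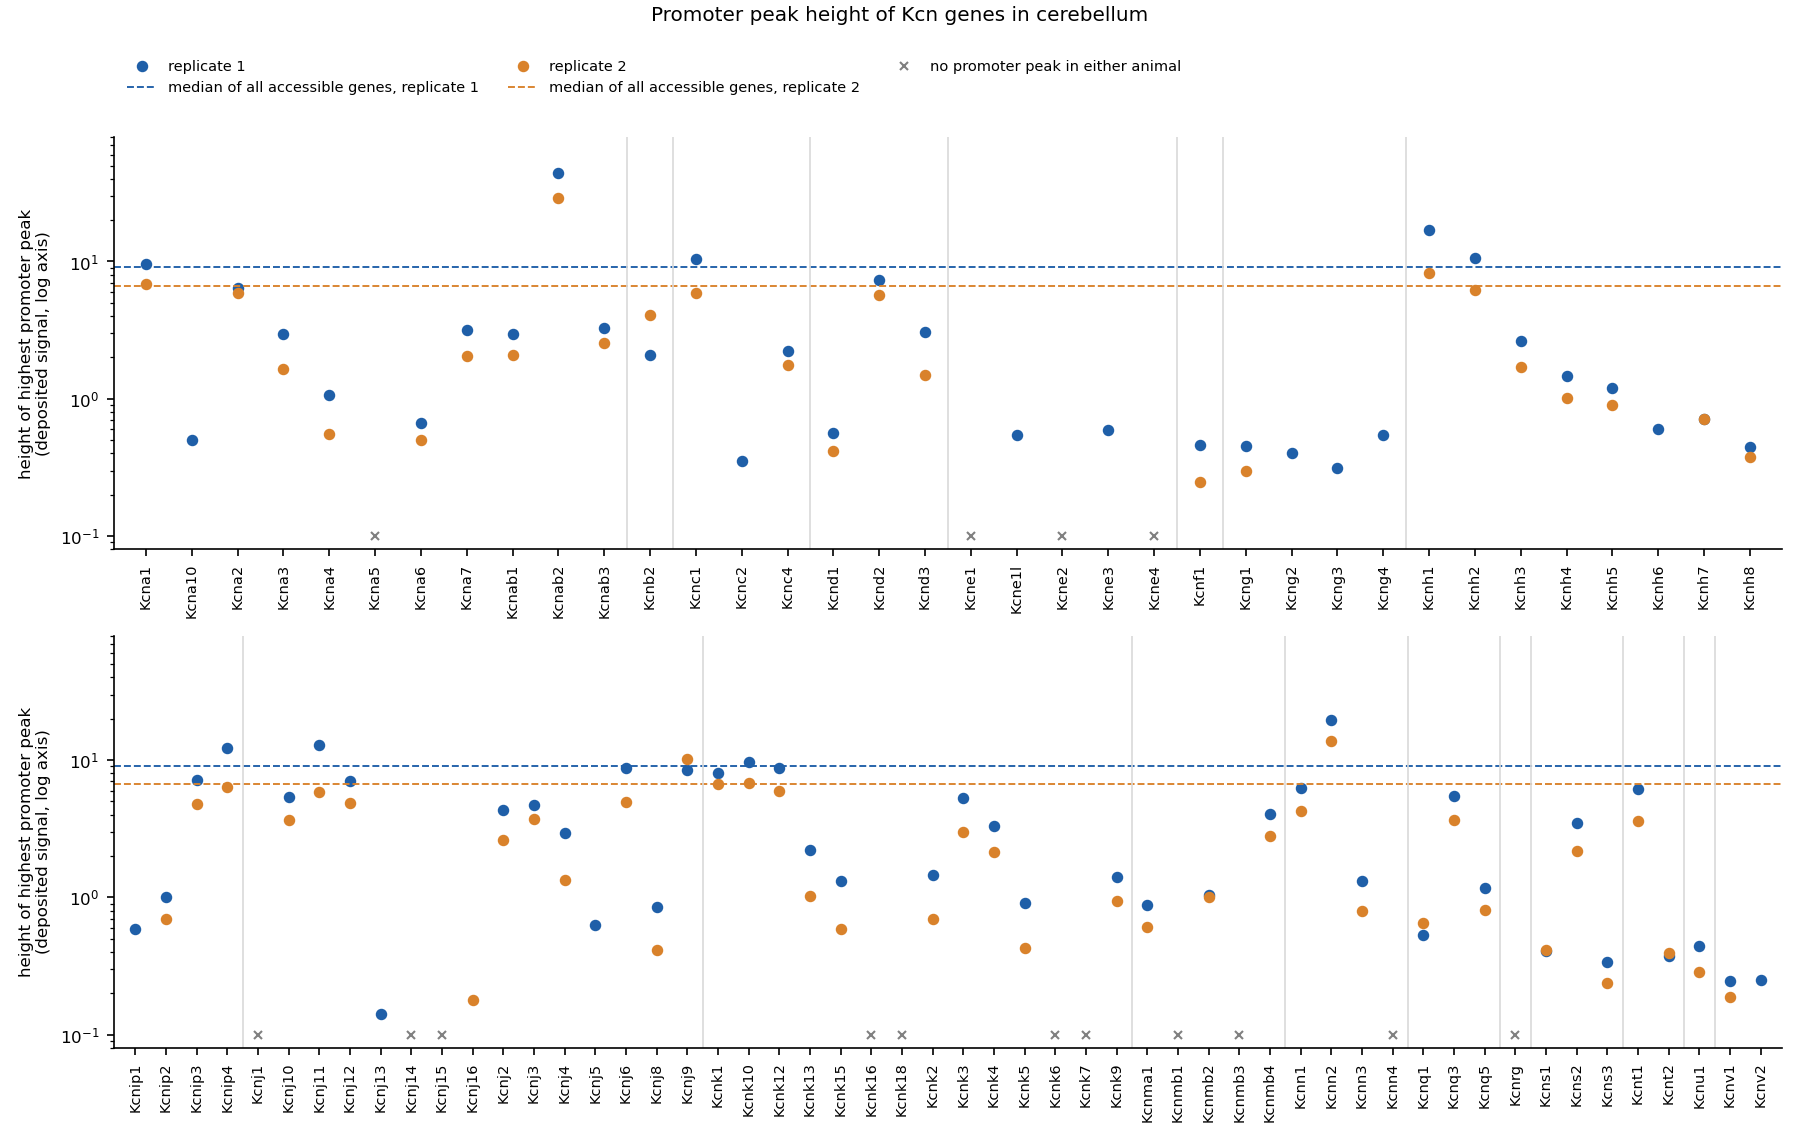
Height of the highest promoter peak of each of 90 Kcn genes (y axis, deposited signal on a log scale) in replicates 1 and 2, with grey lines between subfamilies, dashed lines at the median of all accessible protein-coding genes (9.10 and 6.65), and crosses at an arbitrary low position for the 15 genes with no promoter peak in either animal. Kcnab2 stands highest, and 51 of the 62 plotted genes seen in both animals lie below the dashed line of each animal.

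At like CpG content, accessible promoters were about as frequent among Kcn genes as among all genes, but their heights differed. All protein-coding genes were split into 5 equal classes by the observed over expected CpG content of the promoter window, from lowest (1) to highest (5). The share of genes with a promoter peak in both animals rose over the classes for Kcn genes as it did for all genes. It was 12.5%, 36.4%, 87.5%, 88.9% and 92.9% for the 8, 22, 32, 18 and 14 Kcn genes of the classes, and 9.39%, 33.9%, 81.4%, 93.6% and 96.3% for all genes. Weighted to the CpG classes of the Kcn genes, 68.7% of all genes had one in both animals, near the 70.2% of the Kcn genes. Of the 15 Kcn genes with no promoter peak, 14 were in the 2 lowest classes. The median height of Kcn genes was below that of all genes within every class, but class 1 held only 4 accessible Kcn genes in replicate 1 and 1 in replicate 2. In class 2, 4 of 11 and 3 of 9 accessible Kcn genes exceeded the median of all genes. In the highest class the median was 3.01 and 2.70 for Kcn genes against 13.8 and 9.20 for all genes. In the middle class it was 1.32 and 1.01 against 6.49 and 4.95. Across Kcn genes, the CpG content at the strongest start and the log2 height had a Pearson correlation of 0.32 in replicate 1 (78 genes) and 0.23 in replicate 2 (67 genes). Over all accessible genes these were 0.47 and 0.42.

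**Figure D2:**
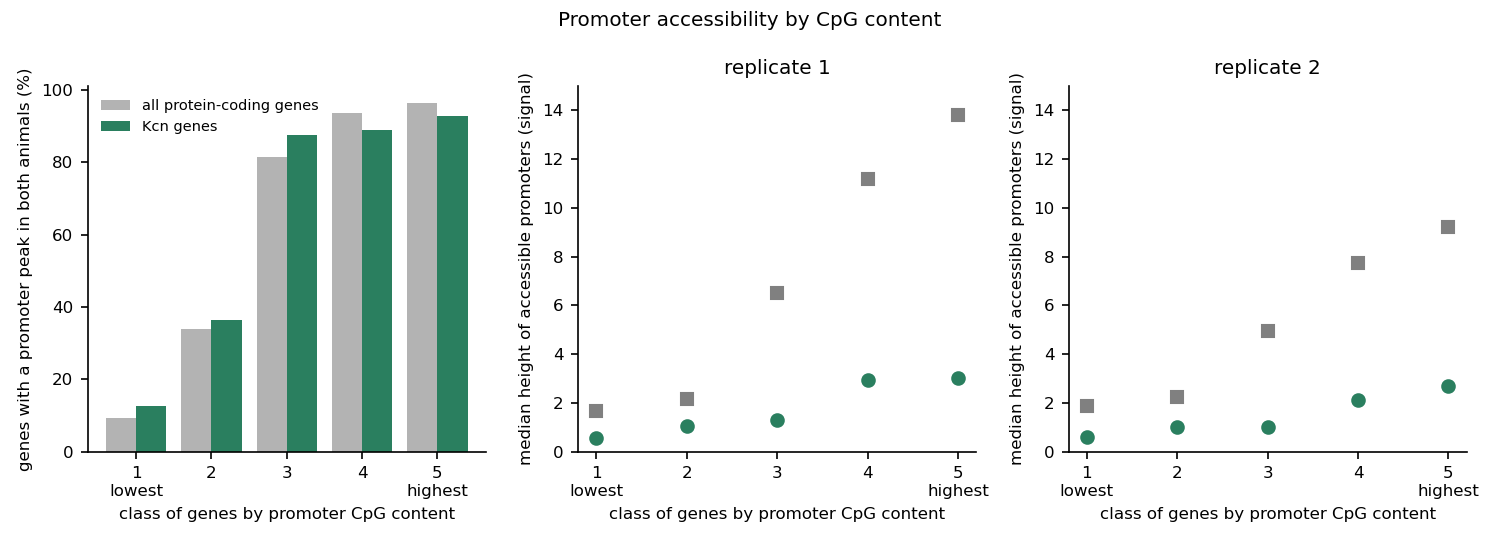
Left, percent of genes with a promoter peak in both animals by class of CpG content at the gene's own start. Middle and right, median height of accessible promoters (deposited signal) in replicates 1 and 2, for all protein-coding genes (grey) and Kcn genes (green). The bars of both groups rise together, while the Kcn medians stay at 3.01 or lower where those of all genes reach 13.8.

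Together, the shaker-type Kcna genes and their beta subunits had 9 of 11 promoters accessible in both animals, or 81.8%, beside 62.9% of all genes. Each subfamily count below rests on few genes and is to be read against that background. Kcnab2, which encodes a cytoplasmic beta subunit, had the highest promoter peak of any Kcn gene, at 44.4 and 28.9. This was above 99.8% and 99.9% of all accessible promoters, and its window is shared with the gene Nphp4. This rank rests on the shared peak, since without it the mean height of Kcnab2 over both animals was 1.18 in place of 36.7. Kcna1 and Kcna2, subunits of axonal channels in basket cells and other neurons, had heights of 9.54 and 6.85, and of 6.44 and 5.93. Kcnab3 and Kcnab1, the other beta subunit genes, had 3.27 and 2.53, and 2.94 and 2.08. Kcna1 was also among the genes with most separate promoter peaks, with 6 in each animal. The other members with peaks in both animals lay between 0.504 and 3.15. Kcna10 had a peak of 0.504 in replicate 1 alone, and Kcna5 had none.

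The Kcnc genes encode the fast-closing channels that let neurons fire at high rates. Kcnc1, a channel of granule cells, had a height of 10.5 in replicate 1 and 5.92 in replicate 2. Kcnc4 was lower at 2.22 and 1.75, and Kcnc2 had a low peak of 0.352 in replicate 1 and none in replicate 2. The order of Kcnc1 above Kcnc4 held in both animals. The promoter peak of Kcnc1 is shown on the GRCm38.p6 (mm10) sequence because it can be set beside a distal peak of the same gene that is higher, described later. Only the part of a peak outside annotated exons, and at most its central 300 bases, is printed here and for other peaks, 5′ to 3′ along the strand of the gene, with matches to the motifs listed later in capitals.
Kcnc1 promoter peak, chr7:46396301-46396496, plus strand: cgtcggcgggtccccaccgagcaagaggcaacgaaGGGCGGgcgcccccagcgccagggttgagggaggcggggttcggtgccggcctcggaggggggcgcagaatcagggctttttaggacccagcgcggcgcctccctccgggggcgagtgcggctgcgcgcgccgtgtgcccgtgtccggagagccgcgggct
The capitals mark a GC box, and the printed stretch has a GC content of 76.0%.

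The A-type Kcnd channels and their Kcnip partners, calcium-binding proteins that hold the channels at the surface and set their gating, differed widely. All 3 Kcnd genes were accessible in both animals. Kcnd2, the main A-type subunit of granule cells, had a height of 7.33 and 5.68, Kcnd3 of 3.07 and 1.49, and Kcnd1 of 0.564 and 0.415. Among partners, Kcnip4 reached 12.3 and 6.41, Kcnip3 reached 7.19 and 4.76, and Kcnip2 had 1.00 and 0.691. Kcnip1 had a peak of 0.585 in replicate 1 only. With the gene's own start alone, however, all 4 Kcnip genes, Kcnip1 included, had a promoter peak in both animals. The order Kcnd2, Kcnd3, Kcnd1 held in both animals. The order among the partners turned on the window, since with 2 kb windows the mean height of Kcnip2 over both animals was 8.77 in place of 0.847, above the 5.97 of Kcnip3. The promoter peak of Kcnd2 is printed as that of the highest A-type pore gene.
Kcnd2 promoter peak, chr6:21215151-21215450, plus strand: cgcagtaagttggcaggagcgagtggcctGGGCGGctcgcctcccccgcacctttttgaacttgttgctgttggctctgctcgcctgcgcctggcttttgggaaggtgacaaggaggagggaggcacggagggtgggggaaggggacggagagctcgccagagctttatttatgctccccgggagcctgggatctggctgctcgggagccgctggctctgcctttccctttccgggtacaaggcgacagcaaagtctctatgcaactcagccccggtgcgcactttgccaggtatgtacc
It holds 1 GC box, and its GC content is 62.3%.

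Of the 8 Kcnh genes, voltage-gated channels of the ether-a-go-go type, 7 were accessible in both animals (87.5%, all genes 62.9%). Kcnh1 stood out with 16.9 in replicate 1 and 8.22 in replicate 2, followed by Kcnh2 with 10.6 and 6.22. Kcnh3 had 2.63 and 1.71, and Kcnh6 a peak of 0.602 in replicate 1 only. Kcnh4, Kcnh5, Kcnh7 and Kcnh8 lay between 0.375 and 1.47. With 2 kb windows the mean height of Kcnh4 over both animals was 7.79 in place of 1.24. The highest distal peaks of Kcnh4 were only 2.29 and 1.52, so the added peak lay in the promoter window of another protein-coding gene. The Kcnh1 promoter peak is printed to be compared with a distal peak of similar height in the same gene.
Kcnh1 promoter peak, chr1:192190641-192190773, plus strand: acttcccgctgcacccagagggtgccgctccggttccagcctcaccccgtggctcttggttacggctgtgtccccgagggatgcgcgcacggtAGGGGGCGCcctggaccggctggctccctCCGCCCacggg
Its capitals are a match to a core of the CTCF motif and a GC box on the other strand. The calcium-activated genes came next. Kcnn2, the small-conductance channel of Purkinje cells, had the second highest promoter peak of all Kcn genes in both animals, at 19.5 and 13.8, centred at -743 bp from a start. With windows of 500 bp its mean height over both animals was 2.25 in place of 16.7. Kcnn1 had 6.25 and 4.28, Kcnn3 had 1.31 and 0.800, and Kcnn4, known from blood cells and epithelia, had no promoter peak. Kcnma1, the pore of the large-conductance channel, had a low peak of 0.873 and 0.612, although 7 of its 11 starts had a peak in each animal. Of its beta subunits, Kcnmb4 had 4.04 and 2.82 and Kcnmb2 had 1.04 and 1.01, while Kcnmb1, known from smooth muscle, and Kcnmb3 had none.

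Inward rectifiers (Kcnj) had 9 of 15 promoters accessible in both animals. The highest were Kcnj9 at 8.49 and 10.2, Kcnj11 at 12.8 and 5.85, Kcnj6 at 8.78 and 4.95 and Kcnj12 at 7.06 and 4.84. Kcnj3, Kcnj6 and Kcnj9 encode subunits of the G protein-gated channels of neurons, and Kcnj3 had 4.67 and 3.73. Kcnj10, the main rectifier of astrocytes and Bergmann glia, had 5.38 and 3.68, while its partner Kcnj16 had a peak only in replicate 2, at 0.178. Kcnj8, a channel of vascular mural cells, had 0.851 and 0.415. Kcnj2 and Kcnj4, classical strong rectifiers, had 4.33 and 2.64, and 2.94 and 1.33. The kidney channel gene Kcnj1 had none, as did Kcnj14 and Kcnj15, and Kcnj5 and Kcnj13 had peaks of 0.634 and 0.141 in replicate 1 only.

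The Kcnk genes encode leak channels that are open at rest, and 10 of 14 were accessible in both animals (71.4%, all genes 62.9%). The highest were Kcnk10 at 9.63 and 6.80, Kcnk12 at 8.83 and 5.97 and Kcnk1 at 8.03 and 6.69. With windows of 500 bp the mean height of Kcnk10 over both animals was 2.78 in place of 8.22. Kcnk3 and Kcnk9 carry the standing leak current of granule cells. Kcnk3 had 5.33 and 2.97, but Kcnk9 only 1.40 and 0.938, among the lowest 17.7% and 12.6% of accessible promoters. With 2 kb windows, which take in a further peak, the mean height of Kcnk9 was 6.44 in place of 1.17. Kcnk13, a channel of microglia, had 2.23 and 1.02 although no microglial marker had a promoter peak. Kcnk2, Kcnk4, Kcnk5 and Kcnk15 lay between 0.425 and 3.32. Kcnk6, Kcnk7, Kcnk16 and Kcnk18 had no promoter peak in either animal.

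Among other subfamilies, the Kcnq genes include the M-current channels. Kcnq3 had 5.51 and 3.67, and Kcnq1, known from heart and inner ear, had 0.531 and 0.652. Kcnq5 had 1.17 and 0.810. Kcnb2, a delayed rectifier, had 2.08 and 4.08, at peaks that do not overlap, at -483 bp and 767 bp from a start, and with windows of 500 bp its mean height was 1.74 in place of 3.08. The sodium-activated channel gene Kcnt1 had 6.19 and 3.58 and Kcnt2 had 0.374 and 0.395. Silent subunits, which form no channel alone and modify Kcnb channels, were low with 1 exception. Kcns2 had 3.48 and 2.19, whereas Kcnf1 had 0.461 and 0.247, Kcng1 had 0.455 and 0.296 and Kcnv1 had 0.244 and 0.188. Kcns1 had 0.406 and 0.415, and Kcns3 had 0.341 and 0.237. Kcng2, Kcng3, Kcng4 and Kcnv2 had peaks of 0.401, 0.314, 0.542 and 0.249 in replicate 1 alone. Kcnu1, known from sperm, had 0.444 and 0.286.

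None of the 5 Kcne genes, small accessory subunits of heart and epithelia, had a promoter peak in both animals. Kcne3 and Kcne1l had peaks of 0.596 and 0.547 in replicate 1 alone, and Kcne1, Kcne2 and Kcne4 had none. The single Kcnrg gene had none. Over all subfamilies, the 12 peaks seen only in replicate 1 had heights of 0.141 to 0.634, with a median of 0.523. Such peaks were at or below the 43.5th percentile of the whole list, so they lay at the low end of what was called.

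Distal peaks were more frequent around Kcn genes than around all genes, as they also were around calcium and sodium channel genes. At least 1 was present in both animals for 77 Kcn genes, or 81.9%, beside a background of 64.6%. The median number per gene was 4.5 and 4 for Kcn genes and 2 and 1 for all genes. Kcn genes are longer, with a median territory (gene body plus flanks) of 50.8 kb against 37.4 kb. Per 100 kb the medians were 6.64 and 5.76 for Kcn genes and 3.99 and 3.28 for all genes. In the longest of 5 classes of gene length this difference was not seen. There, 32 Kcn genes had medians of 4.16 and 4.08 per 100 kb, and all genes 4.57 and 3.95. It was widest in length class 4, where 18 Kcn genes had 14.3 and 12.9 against 4.15 and 3.66. Within the territories, 73.6% and 76.3% of distinct distal peaks lay in introns, and 5.32% and 4.08% lay inside the body of another protein-coding gene. A footprint lay in 83.9% and 76.6% of them, and in 81.8% and 76.3% of the distal peaks of all genes. At least 1 distal peak was present in both animals for all 26 calcium and all 14 sodium channel genes. Their medians per 100 kb were 9.48 and 6.29 for calcium and 6.03 and 4.64 for sodium channel genes, with median territories of 125 and 123 kb.

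The largest numbers of distal peaks belonged to a few long genes. Kcnip4 had 42 in replicate 1 and 47 in replicate 2, Kcnh1 39 and 35, Kcnj6 37 and 35, Kcnd3 30 and 26, Kcnd2 27 and 28, Kcnma1 28 and 23, and Kcnip1 29 and 20. Kcnj12 had 42 in replicate 1 but 13 in replicate 2. Counting only peaks present in both animals, Kcnh1 had 30, Kcnj6 had 29 and Kcnip4 had 25, beside a median of 3 per Kcn gene and 1 per gene overall. Among the densest territories by peaks present in both animals, Kcnc1 and Kcnk3 had 19.3 each per 100 kb, Kcnj11 had 18.6, Kcnk12 had 16.6, Kcnk1 had 16.2 and Kcnj12 had 16. Among genes of the same length class, Kcnc1 had more distal peaks than 99.4% in replicate 1 and 99.6% in replicate 2.

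**Figure D3:**
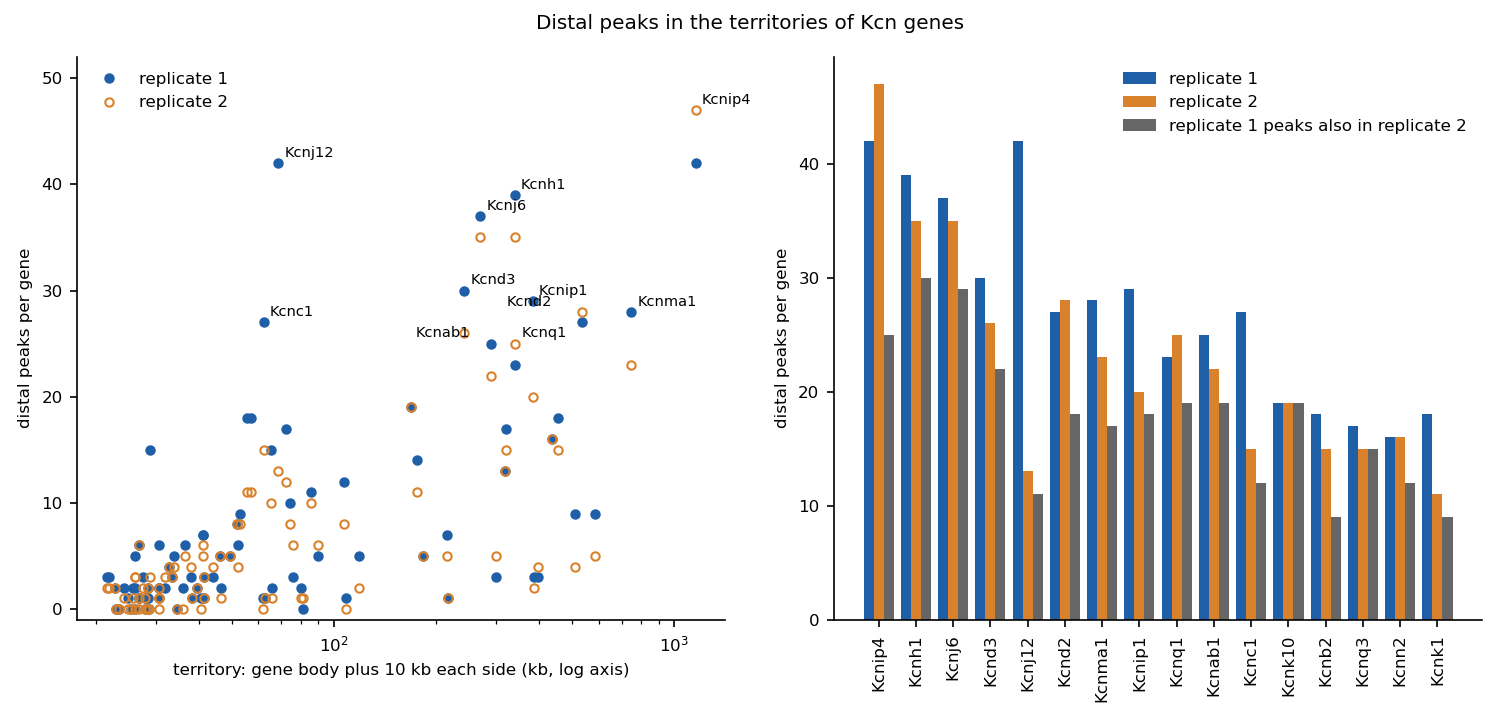
Left, distal peaks of each of 90 Kcn genes (y axis) against its territory in kb (x axis, log scale) in both animals; right, the 16 of these with most distal peaks on average, with counts in each animal and the replicate 1 peaks that overlap a replicate 2 peak. Kcnip4, Kcnh1 and Kcnj6 have many in both animals, whereas Kcnj12 and Kcnc1 have fewer in replicate 2 than in replicate 1.

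Several of the densest genes owed much of their count to peaks called in replicate 1 alone. Of the 42 replicate 1 peaks of Kcnj12, the 31 found only in that animal had a median height of 0.428 against 1.69 for the shared ones. Kcnc1 had 15 such peaks among 27 and Kcnj9 had 12 among 15. Over all Kcn territories, 287 of 808 distinct replicate 1 peaks were absent from replicate 2. Their median height was 0.434, against 1.34 for the 521 shared. The 118 found only in replicate 2 had a median of 0.385. The part of the longer peak list of replicate 1 in these differences was not tested.

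The highest distal peak was often higher than the highest promoter peak of the same Kcn gene. Of 57 Kcn genes with both kinds of peak in both animals, 33 (57.9%) had a higher distal peak in both. The background was 24.1%, or 2613 of 10821 genes. The ratio of the distal to the promoter height had a median of 1.41 and 1.23 for Kcn genes and of 0.388 and 0.415 for all genes. Beside the lower promoters, the highest distal peak per gene had medians of 4.24 and 2.93 for Kcn genes against 2.35 and 1.94 for all genes. Kcn genes had more distal peaks from which the highest was taken. Over all distal peaks the medians lay closer, at 0.813 and 0.988 for Kcn genes against 0.737 and 0.859 for all genes. Calcium channel genes had 14 of 19 and sodium channel genes 2 of 10. With promoter windows of 2 kb, the share was 54.5% for Kcn genes and 23.7% for all genes, and with flanks of 50 kb it was 71.9% and 31.4%.

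**Figure D4:**
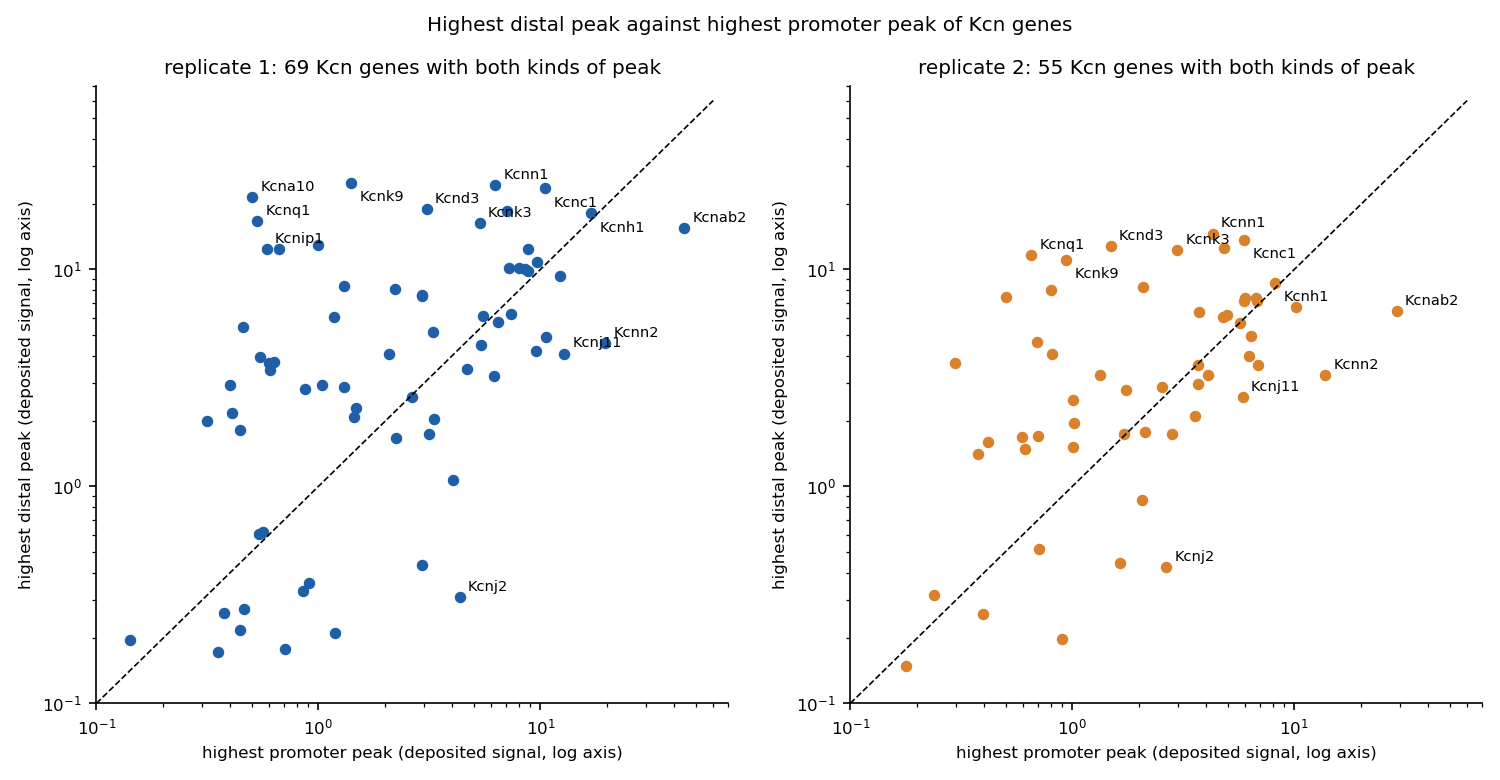
Highest distal peak (y axis) against highest promoter peak (x axis) of each of these 90 Kcn genes with both kinds of peak, deposited signal on log scales, in replicate 1 (left) and replicate 2 (right), with a dashed line at equality. Points above the line, such as Kcnk9, Kcnd3, Kcnn1 and Kcnc1, have the higher distal peak, and Kcnab2, Kcnn2 and Kcnj11 lie below it.

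Kcnk9 had 1 of the largest gaps. Its promoter peak was 1.40 and 0.938, and a peak inside its intron at 29129 bp from the start had heights of 25.1 and 11.1, or 18.0 and 11.9 times the promoter. Kcnk9 also had peaks at -3291 bp, of 15 and 8.79, and at -1451 bp, of 8.15 and 4.72, the last just outside the promoter window. Kcna10, whose own promoter had a peak only in replicate 1 (0.504), had a peak at -7415 bp of 21.5 and 15.9. That stretch lies between Kcna2 and Kcna10, which are 68.0 kb apart. The Kcnq1 territory held a peak of 16.7 and 11.6 beyond its last exon, at 322229 bp from the start. In these genes the strongest accessible DNA of the territory therefore lay outside the promoter in both animals. The distal peaks of Kcnk9 and Kcna10 are printed as those that exceed a low or absent promoter peak.
Kcnk9 distal peak, chr15:72517141-72517280, minus strand: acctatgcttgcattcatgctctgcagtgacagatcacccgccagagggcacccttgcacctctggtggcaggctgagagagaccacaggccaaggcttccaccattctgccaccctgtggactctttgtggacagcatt
Kcna10 distal peak, chr3:107175541-107175740, plus strand: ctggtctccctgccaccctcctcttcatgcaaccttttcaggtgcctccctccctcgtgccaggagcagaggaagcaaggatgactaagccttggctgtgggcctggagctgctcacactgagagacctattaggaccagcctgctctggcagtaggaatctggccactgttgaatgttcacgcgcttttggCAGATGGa
The Kcnk9 stretch holds none of the motifs searched, and the Kcna10 stretch holds 1 E-box of the type bound by NeuroD factors.

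In other genes a high distal peak stood beside a promoter peak present in both animals. Kcnc1 had a peak at -3166 bp of 23.7 and 13.7, or 2.24 and 2.32 times its promoter. Kcnn1 had a peak at -2563 bp of 24.5 and 14.6, the highest upstream peak of the set in replicate 1. Kcnh1 had an intronic peak at 254107 bp of 18.2 and 8.69, or 1.07 and 1.06 times its promoter. Kcnd3 had one at 24301 bp of 19 and 12.8, and the Kcnk3 territory had peaks at 18391 bp of 16.4 and 11.1 and at 3181 bp of 14.6 and 12.3. The sequences of the Kcnc1, Kcnn1 and Kcnh1 distal peaks follow, for comparison with the promoter peaks printed above.
Kcnc1 distal peak, chr7:46393281-46393380, plus strand: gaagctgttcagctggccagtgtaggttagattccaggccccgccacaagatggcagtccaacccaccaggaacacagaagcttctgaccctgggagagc
Kcnn1 distal peak, chr8:70865701-70865940, minus strand: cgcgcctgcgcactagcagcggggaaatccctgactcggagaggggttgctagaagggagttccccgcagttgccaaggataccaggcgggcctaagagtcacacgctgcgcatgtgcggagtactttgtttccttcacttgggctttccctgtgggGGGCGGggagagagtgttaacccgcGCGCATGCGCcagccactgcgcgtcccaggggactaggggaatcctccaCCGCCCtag
Kcnh1 distal peak, chr1:192444801-192444960, plus strand: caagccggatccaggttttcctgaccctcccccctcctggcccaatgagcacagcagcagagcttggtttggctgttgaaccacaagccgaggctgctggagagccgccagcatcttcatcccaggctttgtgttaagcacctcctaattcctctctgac
The Kcnn1 stretch differs from the others in base composition and motifs. It has a GC content of 63.8%, 2 GC boxes, and the stretch matching NRF1 on both strands, while the Kcnc1 and Kcnh1 distal stretches, with 58.0% and 57.5% GC, hold no match.

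**Figure D5:**
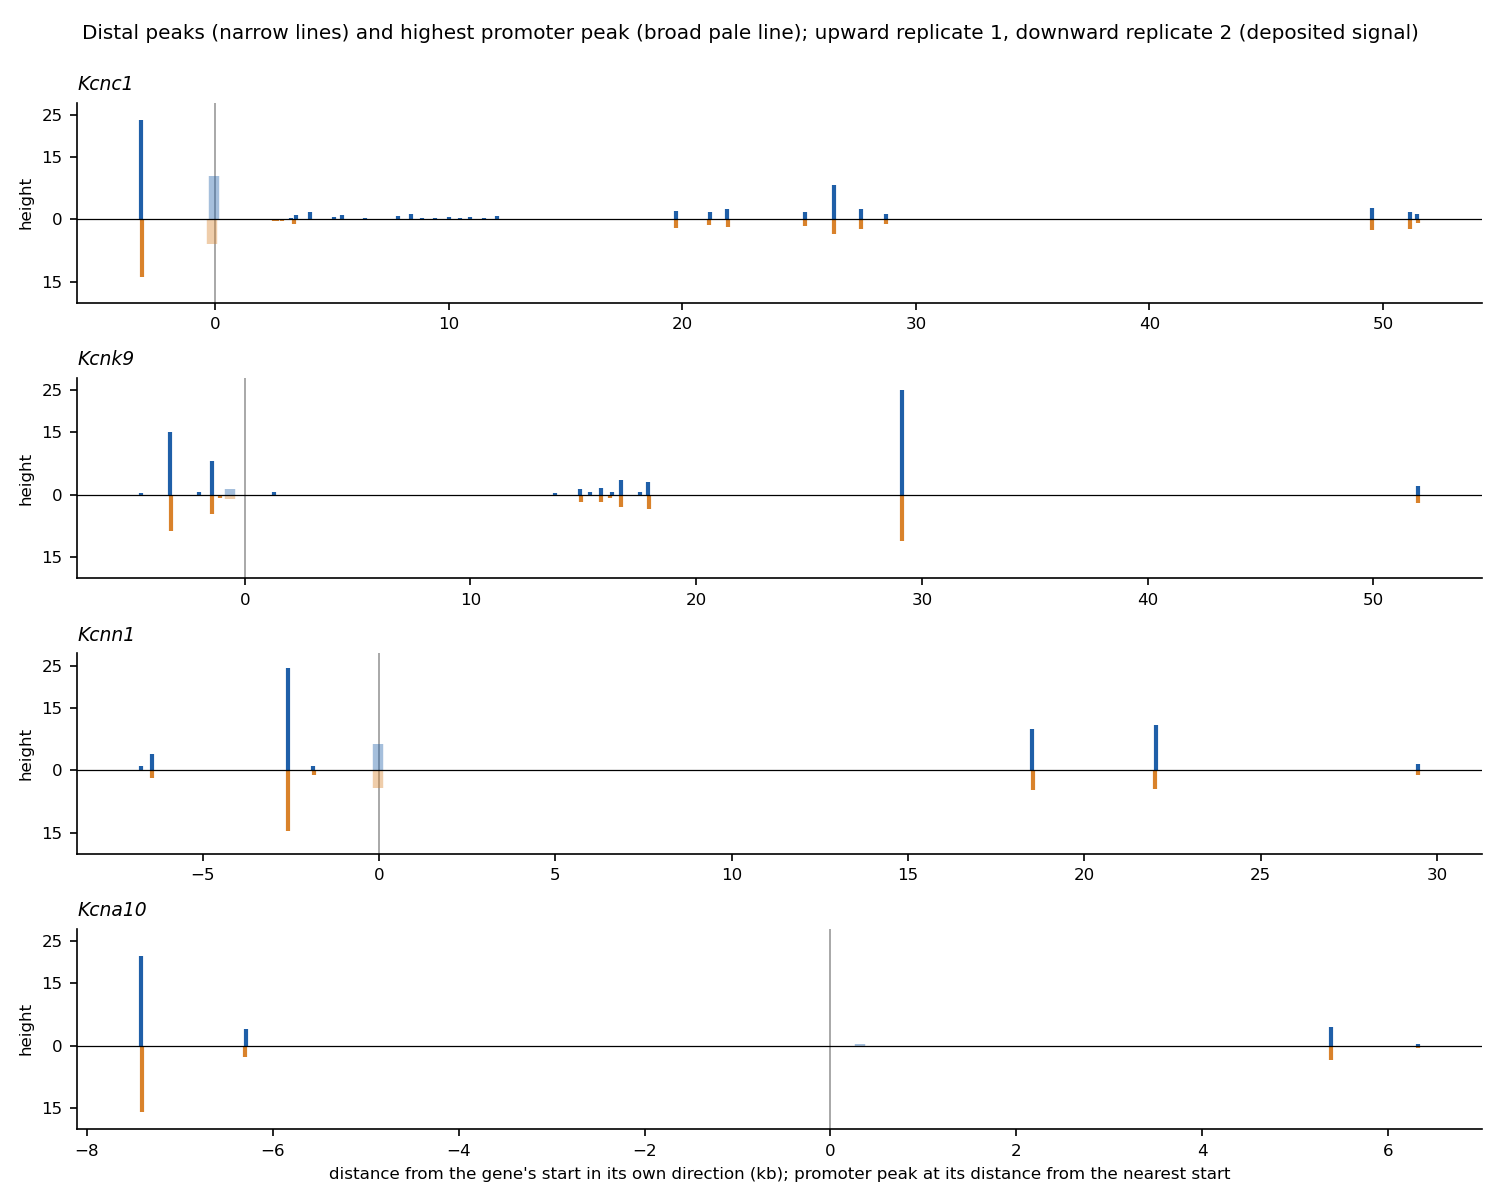
Peaks around Kcnc1, Kcnk9, Kcnn1 and Kcna10 by distance from the gene's start in kb (x axis) and height in the deposited signal (y axis, replicate 1 upward, replicate 2 downward); narrow lines are distal peaks and the broad pale line is the highest promoter peak. In each gene the highest line is a distal peak found at the same place in both animals.

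Motifs were counted as exact matches on either strand in 300 bp centred on the replicate 1 peak. The letters searched were GGGCGG for the GC box, TGACGTCA for CRE, GCGCATGCG for NRF1, CCGGAAGT for ETS, TATAAA for the TATA box, CAGATGG for the NeuroD-type E-box, TGANTCA for AP-1, CTAAAAATA for MEF2, GTTGCCATG for RFX, CCTGCTG for ZIC and AGGGGGCGC for the CTCF core. NFI and RE1 were searched as paired parts with a fixed gap, and no highest promoter or distal peak of a Kcn gene held either. Over all genes, NFI was in 0.0319% of highest promoter peaks and 0.213% of highest distal peaks, and RE1 in 0.112% and 0.0556%. Both were so rare that their absence says little about Kcn genes. No motif contains another, and the NRF1 letters overlap their own reverse complement. At the highest promoter peak, 47 of 66 Kcn genes held a GC box, or 71.2%, beside 69.4% of the 12532 distinct promoter peaks of all genes. ZIC was in 11 (16.7%, all genes 12.2%) and the NeuroD-type E-box in 2, those of Kcna2 and Kcnu1 (3.03%, all genes 4.41%). No Kcn promoter peak held the ETS letters, found in 7.84% of all, or the NRF1 letters, found in 3.98%. CRE was in 1, that of Kcnf1 (1.52%, all genes 3.82%). MEF2 (all genes 0.199%) and TATA (all genes 3.71%) were both in that of Kcnj9 alone. The CTCF core was in 3 (4.55%, all genes 3.15%). At the highest distal peak, 13 of 71 Kcn genes held the NeuroD-type E-box (18.3%, all genes 19.5%), 15 held ZIC (21.1%, all genes 21.2%) and 7 the GC box (9.86%, all genes 13.9%). AP-1 letters were in 3 (4.23%, all genes 8.84%). A longer CTCF consensus, chosen after the sequences were seen, was in 11 (15.5%, all genes 15.4%). Most shares of the Kcn distal peaks thus lay near those of all distal peaks.

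Among genes whose products join, anchor or modulate potassium channels, 25 of 27 (92.6%) had a promoter peak in both animals, beside 70.2% of Kcn genes and 62.9% of all genes. Their CpG content at the gene's own start was also higher, with a median observed over expected ratio of 0.568 against 0.475 for Kcn genes. The part of CpG content in this was not tested. Their median heights were 5.53 and 4.04. Dpp6, an accessory subunit of A-type channels, had 6.28 and 4.85 and held 97 and 75 distal peaks, more than any Kcn gene. Dlg2, a scaffold that clusters shaker-type channels, had 23.7 and 16.8. Abcc8, the partner of Kcnj11, had 2.54 and 1.78, whereas Abcc9, the partner of Kcnj8, had no promoter peak. Voltage-gated channels for other ions also had median heights below those of all genes. A promoter peak in both animals was found for 19 of 26 calcium channel genes and 10 of 14 sodium channel genes, or 73.1% and 71.4% beside the 62.9% of all genes. Their median heights were 3.45 and 2.95, and 1.73 and 2.18.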

How the data were processed

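Per the labels, DNase-seq was made from 2 cerebellum samples with 1 donor entry, each with its own files on mm10 and no pooling. Which aligner and callers were used is not given in the sources used here. The authors deposited peak heights, a signal of unstated scaling. They also deposited false discovery rates, read as a p-value, for stretches below 0.05 alone. Every footprint carries the same p-value entry, 0.01, so only positions were used. The list with more rows was the main one. Peaks were counted as listed and assigned by any overlap (Python 3.11.15, pandas 2.3.3, numpy 2.4.6, bedtools 2.31.1, samtools 1.23.1), with code tested on simulated data. Depth in reads is unknown, so no interval was computed.

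The members, gene lists and naming rule were chosen with earlier results of these data known. Named were the leading gene of each subfamily, the highest 10 promoters, those seen in 1 animal or neither, those with most distal peaks, starts or promoter peaks, and genes known from cerebellar cell types or other organs. Other genes named, and the peaks described one by one, were chosen after their values were seen. Alternatives covered windows, lists, thresholds, flanks, shared peaks and each animal alone. Values of 4 members are not reported here one by one; they stay in all counts and medians and are left out of the plots of single genes.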

Additional observations from a re-analysis of the deposited data

How the results depend on the processing

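Kcn genes with a promoter peak in both animals numbered 66. They were 62 to 67 with other windows, the gene's own start alone, peak midpoints, equal numbers of peaks or shared peaks left out, 55 with the shorter lists and 43 with peaks above the list median. Using 1 animal gave 67 to 78. The share over all genes, 62.9%, was 59.4% with the shorter lists, 55.7% with peaks above the median, 59.4% with the gene's own start alone, 52.9% without shared peaks, and 63.6 to 67.0% in 1 animal. The mean over both animals of the Kcn median height, 1.96, was 2.76 for summed heights, 2.40 with 2 kb windows, 2.76 with the shorter lists, and 1.77 to 2.15 in 1 animal. As a ratio to the median of all genes it was 0.251, and 0.313, 0.328 and 0.275 with 2 kb windows, the shorter lists and no shared peaks (0.236 to 0.266 in 1 animal). The median number of distal peaks, 4.25, was 2 in the gene body alone, 9.25 with 50 kb flanks, 3 with the shorter lists, 3.50 with equal numbers of peaks, 7.72 as a mean over genes, and 4 to 4.5 in 1 animal. For all genes the medians in replicates 1 and 2, 2 and 1, were 1 and 0 in the gene body alone and 6 and 5 with 50 kb flanks. They were 1 and 1 with the shorter lists or equal numbers of peaks. Per 100 kb, 6.20 became 4.42 in the gene body, 4.09 with the shorter lists, 8.41 as a mean, and 5.76 to 6.64 in 1 animal. For all genes, 3.99 and 3.28 per 100 kb became 1.34 and 0 in the gene body, and 2.22 and 1.90 with the shorter lists. The 57.9% of Kcn genes with a higher distal peak became 71.9% with 50 kb flanks, 62.5% with the gene's own start alone, 62.3% with equal numbers of peaks, 59.6% without shared peaks, 54.5% with 2 kb windows, 56.2% with the shorter lists, 53.8% in the gene body or with peaks above the list median, and 64.4% in either animal alone. The 24.1% of all genes became, in the same order, 31.4%, 26.8%, 24.5%, 27.9%, 23.7% and 23.8%. It was 22.2% in the gene body and 23.3% with peaks above the list median. Of the 66 heights of single genes, 58 were unchanged with 500 bp windows and 57 with 2 kb windows. The 56 genes with a footprint were 53 to 60 under other settings and 57 to 72 in 1 animal. For footprints, the share over all genes was not computed with the other windows and lists. The alternatives for the ratio of heights and for the share with a higher distal peak were chosen after the data were seen. The cause of these shifts was not tested, beyond the fewer peaks or shorter territories that some settings use by construction. No paired analysis was possible because both animals form 1 group.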

Other observations

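Some non-coding genes named after Kcn genes had peaks near their starts. Kcnq1ot1, the antisense transcript inside Kcnq1, had a peak of 5.80 in replicate 1 and 7.73 in replicate 2 at its start, outside every protein-coding promoter window, where the Kcnq1 promoters had 0.531 and 0.652. Kcnab3os had 5.14 and 2.87, at a peak that is also the highest distal peak of Kcnab3, 1.57 and 1.14 times its promoter. Distal peaks left out only the windows of protein-coding genes, so they can include starts of non-coding transcripts. Kcnd3os and Kcnmb4os2 shared the peaks of Kcnd3 and Kcnmb4, and Kcnmb4os1 had none. DNase-seq carries no strand, so a peak in overlapping genes cannot be given to one of them.

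Kcn promoter peaks were rarely shared with another protein-coding gene. Leaving out peaks that lie in the window of another protein-coding gene kept 66 Kcn genes, 65 of them at the same height and Kcnab2 at a lower one, but lowered the share of all genes with a promoter peak in both animals from 62.9% to 52.9%. Kcnc2 and Kcng4 had a region below 0.05 but no peak at the promoter in replicate 2, and Kcnk16 likewise in replicate 1.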
